A study of Mus musculus with 33 samples.

Results

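Microglia from 3-month-old Batf3-/- mice were compared with microglia from WT mice of the same age that had been sorted as controls for them. The 6 libraries of this experiment, 3 Batf3KO and 3 WT, were chosen by their titles from the 33 libraries of the series. The series profiled microglia, macrophages that live in the brain, sorted from mice after loss of the transcription factors IRF8 or BATF3 and in the 5xFAD amyloid model. The labels of all 6 gave strain C57BL/6, female sex, an age of 3 months and no treatment, and the Batf3-/- genotype was the only labelled difference. Which exons the allele lacks is not stated there. For comparison, 2 other experiments at 3 months were used. These were an Irf8 knockout (IRF8KO, 4 libraries) with its own WT (4 libraries), and a conditional knockout in which both arms carried floxed Irf8 and received tamoxifen for 5 days from postnatal day 12, without (flox, 3 libraries) or with (Cre, 4 libraries) the inducible Cre recombinase driven by Cx3cr1, a gene of microglia and other myeloid cells. Groups of 9 months, namely WT, IRF8KO, 5xFAD and 5xFAD/IRF8KO, were used for levels and in 1 model of all 33 libraries. The labels did not tie libraries to single animals, so every p-value here measures the spread between these libraries. Genes that start on chromosome 1 from 26.1 Mb before to 4.9 Mb after the start of Batf3 (GRCm38) are reported apart from all others, as a window. A null allele can carry sequence of the strain in which it was made beside the target, and whether it did so here was not tested.

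BATF3 is a small basic leucine zipper protein of the AP-1 superfamily. It has no activation domain of its own, pairs with JUN proteins, and at composite DNA sites works together with IRF4 or IRF8. It is best known as the factor that type 1 conventional dendritic cells need to develop. Microglia depend instead on IRF8, PU.1, SALL1 and TGF-beta signalling for their identity, and IRF8 is active in both lineages.

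Counts in genes were 12939530 to 16429243 per WT library and 15123546 to 18357762 per Batf3KO library. All 29 homeostatic microglial markers were expressed and took 12.5% to 12.7% of gene counts in WT and 12.3% to 12.5% in Batf3KO. Among markers of type 1 dendritic cells, the 12 genes summed to 330 to 379 CPM (counts scaled to a fixed total per library) in WT and 294 to 309 CPM in Batf3KO, with Gcsam at 0 in every library. Of 15 lymphocyte genes 9, Cd3e and Nkg7 among them, were at 0 in all 6 libraries, as were the neutrophil genes Ly6g, Elane, Mpo and Mmp8. Of the sex-linked genes, 4 Y-linked genes were at 0 in all 6, and Xist was present in all 6 and rose by 0.60 on the log2 scale (adjusted p 0.0314). With Batf3KO replicate 1 left out, the adjusted p of Xist in the same test was 0.155.

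Batf3, on the plus strand of chromosome 1 from 191097847 to 191108945, stood at 23.5, 26.9 and 23.5 CPM in the WT libraries and at 0.524, 0.44 and 0.5 CPM in the Batf3KO libraries. The knockout libraries carried 24 reads in all against 1111, and the log2 change was -5.64 (SE 0.233, adjusted p 1.58e-08). The levels matched the labels in all 6 libraries. Irf8, the partner factor on chromosome 8, had 1100, 1042 and 948 CPM across WT and 974, 930 and 1025 CPM across Batf3KO. Its groups overlapped and its log2 difference of -0.08 (SE 0.0736) did not pass the test (adjusted p 0.636).

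In the quasi-likelihood test of edgeR, 503 of 13128 tested genes (3.83%) changed at a Benjamini-Hochberg adjusted p under 0.05, with 185 higher (1.41%) and 318 lower (2.42%) in Batf3KO. Outside the chromosome 1 window the test called 474 of 12933 genes (3.67%), of which 174 were higher (1.35%) and 300 lower (2.32%). Inside it the test called 29 of 195 tested genes (14.9%). Every called gene had no overlap between the 3 WT and the 3 Batf3KO libraries, a separation that 24% of all tested genes showed. Most changes were small. The median size outside the window was 0.71 on the log2 scale, and 34 higher and 122 lower genes changed by more than 1. The count of calls was sensitive to single libraries. Leaving out WT replicate 1 gave 279 called genes, WT replicate 2 gave 219, Batf3KO replicate 1 gave 223 and Batf3KO replicate 2 gave 254. Outside the window, 50 of the higher and 92 of the lower genes were called whichever of the 6 libraries was left out, and DESeq2 and limma called those same genes. When all 33 libraries were fitted in 1 model, with 1 estimate of the spread for all 10 groups, 10 genes were called, and 9 of them were among the 503: Batf3, Bpnt1, Snhg11, Gria2, Gabra2, Tnfsf13b, Ipcef1, Pcdh9 and G530011O06Rik.

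**Figure D1:**
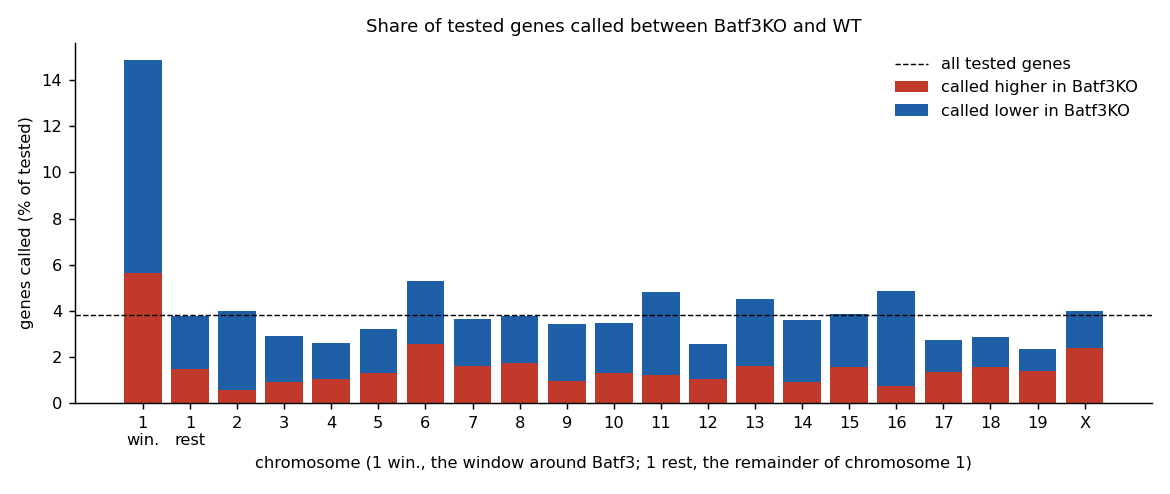
Percent of tested genes called higher (red) or lower (blue) in Batf3KO against WT on each chromosome, with chromosome 1 split into the window around Batf3 and the rest; the dashed line is the share over all tested genes (3.83%). The window stands at 14.9%, the rest of chromosome 1 at 3.8%, and the next highest chromosome, chromosome 6, at 5.28%.

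Outside the window, falls were ranked among called genes with a mean of 5 CPM or more in WT and no overlap between the groups. The 10 largest were in enzymes, surface and signalling proteins and non-coding RNAs. Hebp1, which encodes a cytosolic heme-binding protein whose N-terminal peptide attracts phagocytes, was the most abundant of these 10 in WT. Its level was 143, 143 and 125 CPM across WT and 7.59, 7.1 and 5.33 CPM across Batf3KO, a 20.6-fold difference (log2 change -4.37, SE 0.139, adjusted p 1.49e-09). The 2 groups were far apart, and each varied little. Hebp1 lies on chromosome 6 from 135137522 to 135198022 on the minus strand and overlaps Fam234b, which changed by -0.58.

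Tnfsf13b encodes BAFF, a cytokine on which B cells depend for survival. It had 30.6, 22.1 and 29 CPM across WT and 2.29, 3.08 and 4.05 CPM across Batf3KO. Every knockout library was well below every WT library (log2 change -3.10, SE 0.225, adjusted p 3.22e-06). Naalad2, a membrane peptidase of the glutamate carboxypeptidase family, fell from 17.8, 20.6 and 25.8 CPM to 1.11, 0.943 and 1.55 CPM (log2 change -4.13, SE 0.251, adjusted p 7.82e-07). The antisense RNA Gm16118 fell to near 0, with 9.06, 8.29 and 6.36 CPM across WT and 0, 0.126 and 0 CPM across Batf3KO. Only 2 reads in all came from the knockout libraries. Its ratio from unscaled library totals, 197-fold, has an exact 95% counting interval of 54.1 to 1632. The fit with scaled libraries gave 162.7-fold. Gm16118 lies within Wwox, and the counts ignore strand, so reads of the 2 genes cannot be told apart; Wwox itself stood at 15.7 CPM in WT and 13.3 CPM in Batf3KO.

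Other falls among the 10 largest came from cell-surface and signalling genes. Plxnd1, the semaphorin receptor plexin D1, had 8, 4.59 and 5.3 CPM across WT and 0.0654, 1.07 and 0.0555 CPM across Batf3KO. The transcript BC064078 had 10.9, 11.9 and 13.6 CPM against 0.458, 0.88 and 1.11 CPM. Ipcef1, which binds the cytohesin exchange factors, had 10.6, 8.55 and 11.6 CPM against 0.851, 0.88 and 1.83 CPM. The log2 changes of Plxnd1, BC064078 and Ipcef1 were -3.91, -3.86 and -3.08. Enpp2, the enzyme autotaxin that makes lysophosphatidic acid, was uneven in WT, with 18.8, 6.76 and 7.8 CPM, and low in every knockout library, with 0.851, 1.01 and 1.72 CPM. Ctnnd2, a catenin best known from neurons, and Snhg11, an RNA abundant in neurons, fell by 3.28 and 3.37 on the log2 scale. All 10 of these falls were called whichever library was left out. The neuronal markers that moved with Snhg11 and Ctnnd2 are given further on.

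Several falls were smaller in fold but rested on more reads; these genes were chosen after their values were seen. Il1a, the alarm cytokine interleukin-1 alpha, fell from 73.4, 88.8 and 97 CPM to 21.6, 15.6 and 14.8 CPM (log2 change -2.32, SE 0.157, adjusted p 1.54e-06). Spns2, a sphingosine-1-phosphate exporter, fell from 61, 50.3 and 42.6 CPM to 9.56, 9.11 and 12.4 CPM. Gatm, which catalyses the committed step of creatine synthesis, fell from 131.7, 139.5 and 137.9 CPM to 45.6, 44.5 and 37.8 CPM. In all 3 genes the knockout libraries were close together and far below the lowest WT library. Lat2, an adaptor of immunoreceptor signalling, fell by 1.66, Mmp2, a gelatinase, by 1.52, and Pfkfb3, a regulator of glycolysis, by 1.36 on the log2 scale. Among proteases, Ctsc, the cathepsin that activates granule proteases, fell from a mean of 727 ± 74.9 CPM to 393 ± 14.1 CPM (SD, n = 3 each).

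The 10 named genes that rose outside the window, all of which averaged 5 CPM or more in Batf3KO, started from low levels. Clec7a encodes dectin-1, a receptor for fungal beta-glucan that marks activated microglia. It had 2.05, 1.4 and 3.18 CPM across WT and 16.1, 15.4 and 13.9 CPM across Batf3KO, a 6.91-fold rise (log2 change 2.79, SE 0.268, adjusted p 4.88e-05). All knockout libraries were alike and above all WT libraries. The annotation lists Clec7a, on chromosome 6 from 129461591 to 129472779, as a polymorphic pseudogene. Klf2, a zinc finger factor that keeps myeloid cells quiescent, rose from 8.37, 12.4 and 6.36 CPM to 32.2, 31 and 37.1 CPM (log2 change 1.88, SE 0.209, adjusted p 0.000179). Cd44, the hyaluronan receptor, rose from 1.86, 2.55 and 0.909 CPM to 7.59, 5.34 and 8.33 CPM. Nedd9, a scaffold of integrin signalling, rose from 0.496, 1.47 and 2.5 CPM to 10.3, 7.17 and 8.55 CPM. The named rises were picked from called genes without overlap between the groups, so that separation was set by the choice.

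Among called genes outside the window whose mean reached 5 CPM in either group, the largest rise was that of G530011O06Rik, a non-coding transcript near the end of the X chromosome (169975043 to 169978917). It had 1.24, 1.72 and 1.59 CPM across WT and 45, 34.1 and 79.8 CPM across Batf3KO (log2 change 5.12, SE 0.328, adjusted p 1.13e-06). The transcript lies within Mid1, which had 0.809 CPM in WT and 2.09 CPM in Batf3KO and did not pass the test (adjusted p 0.122). Tcim, the glycosyltransferase gene B3gnt8 and the transcript Gm44260, within Bid, rose by 2.35, 1.82 and 2.46 on the log2 scale. Ddit4, a stress-induced inhibitor of mTORC1, rose from 1.68, 1.47 and 1.06 CPM to 4.65, 3.77 and 10.6 CPM (adjusted p 0.0107) but was not called without WT replicate 2 (adjusted p 0.056). Oscp1 was called (log2 change 2.03, adjusted p 0.0444), but its WT libraries were uneven, at 1.68, 1.98 and 11.7 CPM against 20.8, 17.9 and 22.7 CPM, and leaving out any library other than WT replicate 3 ended the call. The other 8 of the 10 named rises were called whichever library was left out.

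**Figure D2:**
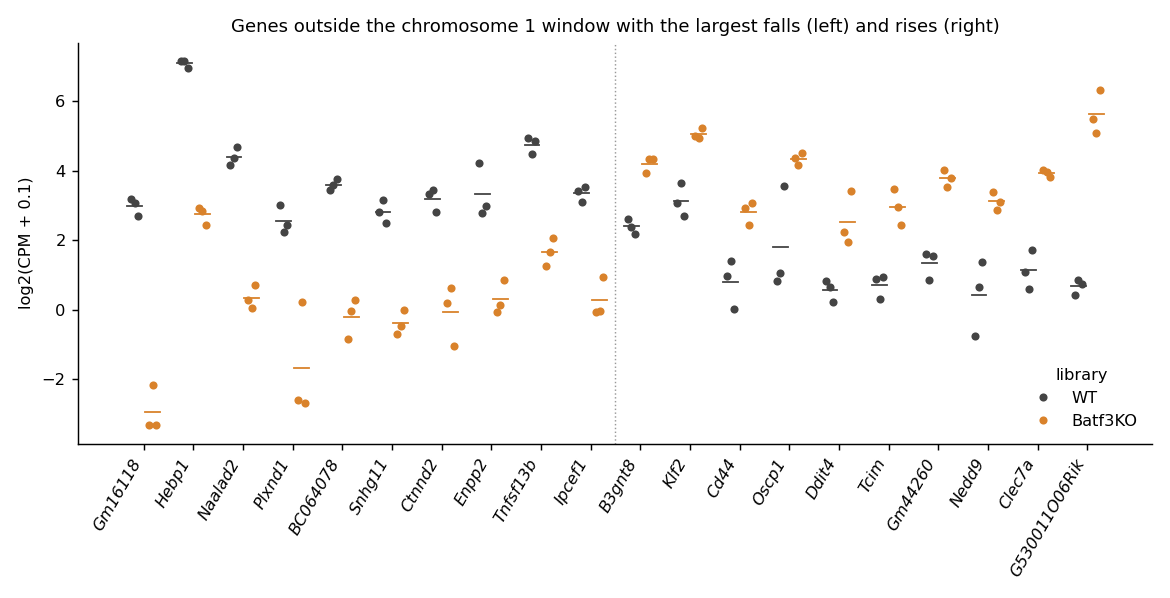
Level of the 20 named genes outside the window in each library, as log2 of CPM plus 0.1, with WT in grey and Batf3KO in orange; bars are means of 3 libraries. The groups are apart in all 20 genes because a lack of overlap was a condition for naming them. WT replicate 3 of Oscp1, at 11.7 CPM, lies nearest to the other group.

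Promoters were searched for the DNA letters that BATF and other AP-1 proteins bind, over the 250 bases before each RefSeq start site (GRCm38.p6), on both strands. The AP-1 site TGANTCA was present for 15 of 217 genes called lower outside the window that matched the table by symbol (6.91%) and for 7 of 134 called higher (5.22%). Over all 9467 matched tested genes the share was 5.18%, and over all 32851 promoters of the table it was 6.75%. The shares are close to each other. The cyclic AMP site TGACGTCA was present for 4.15% of the lower, 0.746% of the higher and 3.13% of all matched tested genes. A composite of the AP-1 site and a short IRF motif, placed 4 bases apart or side by side, contains the AP-1 site and was present for 0 of the called genes in either direction and for 0.0634% and 0.0845% of all matched tested genes. Of the 18 searched genes with a promoter in the table (Batf3, Irf8 and the 20 named), 1 held an AP-1 match, Tnfsf13b.

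Stretches of 61 bases are shown for the 4 called genes with a fall of more than 1 on the log2 scale, an adjusted p under 0.01 and an AP-1 match outside every annotated exon. They let the match be seen in its context, read 5′ to 3′ on the gene's strand with the match in capitals.
Il1a: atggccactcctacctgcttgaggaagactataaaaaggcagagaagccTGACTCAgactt
Itgax: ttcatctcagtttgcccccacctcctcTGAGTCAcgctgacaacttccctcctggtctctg
Osgin1: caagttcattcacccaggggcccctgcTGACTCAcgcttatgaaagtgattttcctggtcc
Wscd1: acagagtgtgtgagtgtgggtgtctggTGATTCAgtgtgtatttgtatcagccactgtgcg
The Il1a stretch lies at chr2:129309973-129310033 on the minus strand, with its match 12 to 6 bases before the start site. Those of Itgax (chr7:128129467-128129527), Osgin1 (chr8:119437023-119437083) and Wscd1 (chr11:71750564-71750624) lie on the plus strand. Itgax, the integrin CD11c, fell from 13.4, 7.79 and 10.4 CPM to 3.86, 1.95 and 3.78 CPM (log2 change -1.72, adjusted p 0.00577). Osgin1, a gene of the oxidative stress response, fell by 1.12 and Wscd1 by 2.33. A match of letters does not show that BATF3 binds there.

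Gene lists were described by their counts, to be read beside 3.83% called and a median of 0.002 over all tested genes. Among the 12 tested AP-1 and Batf genes, Batf3 was the 1 that changed. Batf, a relative that also pairs with JUN proteins, had 10.2, 9.44 and 7.95 CPM across WT and 14, 11.4 and 12.9 CPM across Batf3KO, which did not pass the test (log2 difference 0.47, SE 0.183, adjusted p 0.191). Of the 9 interferon regulatory factors 0 were called, and 0 had an unadjusted p under 0.05 or were called by DESeq2 or limma. Of 10 factors of dendritic cell fate, Nfil3 rose, from 12.9, 15.1 and 15.8 CPM to 22.7, 28.9 and 30.7 CPM (log2 change 0.91, adjusted p 0.00662).

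Of 19 tested factors that set microglial identity, 4 rose and 1 fell (26.3% called). Besides Klf2, the rises were in the myeloid factors Cebpa (log2 change 0.51), Cebpb (0.66) and Runx1 (0.40), and the fall was in the ETS factor Etv5 (-0.38). The calls of Cebpb, Runx1 and Etv5 did not stand whichever library was left out. Of 29 homeostatic genes 0 rose and 2 fell, with a list median of -0.01. The falls were in Cd81, a tetraspanin, from 5246, 5359 and 5109 CPM to 3770, 3852 and 4013 CPM (log2 change -0.43, adjusted p 0.000587), and in P2ry13, an ADP receptor, by 0.37 (adjusted p 0.0204). P2ry13 was not called when any 1 of the Batf3KO libraries was left out.

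Disease-associated microglial genes, a set that microglia turn on near amyloid, did not move one way. Of 28 tested, 4 rose and 3 fell, with a median of 0.15. Clec7a, Axl (log2 change 0.87), Cd52 (0.82) and Ccl4 (0.72) rose, and Itgax, Ccl6 (-1.37) and Lpl (-1.08) fell. Ccl6, a chemokine of myeloid cells, had 219, 253 and 258 CPM across WT and 89.2, 93 and 100 CPM across Batf3KO. Apoe, the lipid carrier, had 698 CPM in WT and 834 CPM in Batf3KO and did not pass the test (adjusted p 0.193). Of 17 genes of lipid handling, Plin2, which coats lipid droplets, rose by 0.47 and Lpl, the lipoprotein lipase, fell. The calls of Plin2, Lpl and Ccl4 did not stand whichever library was left out.

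Immune receptors and their ligands moved in both directions. Of 20 Toll-like receptor genes 2 rose and 3 fell: Tlr7, the receptor for single-stranded RNA (log2 change 0.46), and Ly96, the MD-2 partner of TLR4 (0.82), rose, and Cd180 (-0.65), Tlr12 (-0.57) and Cd14 (-0.36) fell. Of 17 chemokines and receptors 2 rose, Ccr1 (1.16) and Ccl4, and 3 fell, Ccl6, its neighbour Ccl9 (-0.43) and Cxcl12 (-3.75, from a mean of 1.18 CPM). Among 17 cytokine and inflammasome genes, Il1a fell and Il10ra rose (0.32). Complement had 0 called of 12, with 4 at an unadjusted p under 0.05, 1 called by DESeq2 and 2 by limma. Calr, a chaperone of MHC class I loading, was the 1 called of 16 class I genes (0.30), and Ifi30, a lysosomal thiol reductase, the 1 called of 10 class II genes (0.45). In the lysosome list 0 rose and 3 of 29 fell, namely Naglu (-0.49), Gaa (-0.32) and Lgmn (-0.30). Of the calls in this paragraph, those of Cd180, Ccl6 and Il1a stood whichever library was left out, and the others did not.

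Most interferon response genes had positive values that did not pass the test. Slfn2 (log2 change 0.61; adjusted p 0.103 without WT replicate 2) was the 1 called of 36, while 32 of 36 had a positive value and the median was 0.40. The sum of the list was 1149, 1210 and 1039 CPM across WT and 1149, 1067 and 1761 CPM across Batf3KO, so that Batf3KO replicate 3 stood above the other 5 libraries. TGF-beta signalling, on which microglial identity rests, had 1 called of 15, Tgfbr2 (-0.30), a call that was lost without any 1 of 5 libraries.

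**Figure D3:**
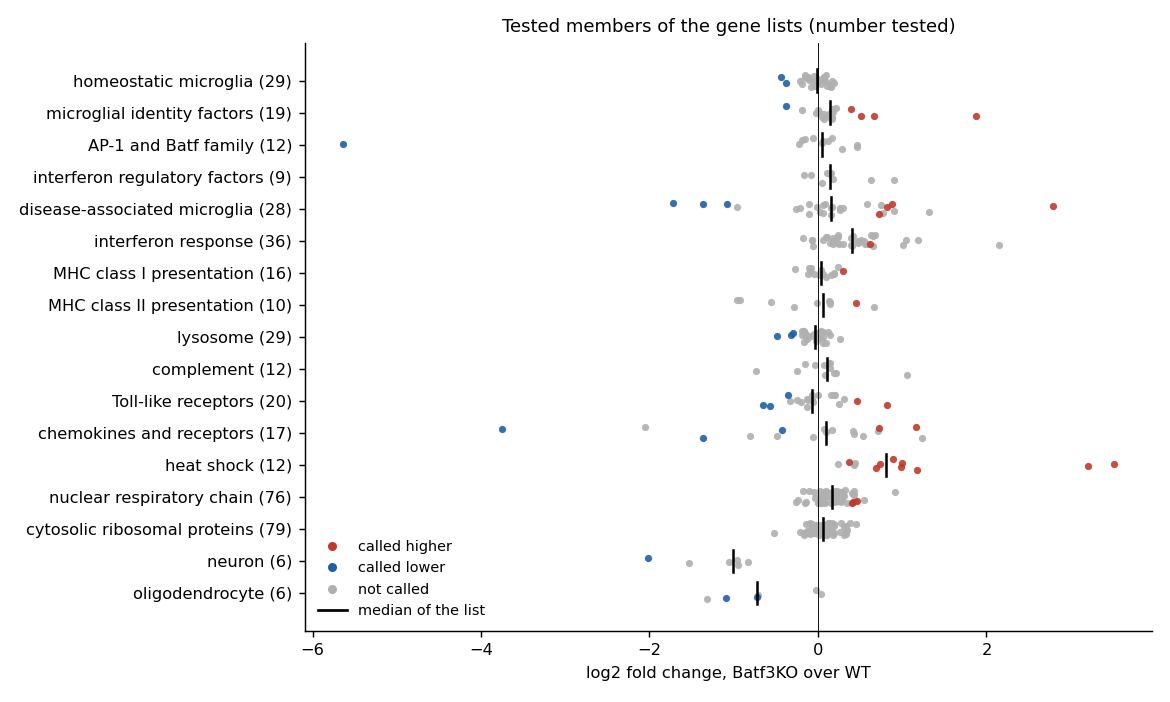
Log2 change between Batf3KO and WT of each tested member of 17 gene lists, 1 point per gene, coloured by call, with the list median as a black bar. The heat shock list has its median at 0.81 and 9 red points, and the neuron list its median at -1.01.

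Heat shock chaperones had the highest share of calls, 75%, among the lists with more than 1 tested gene other than those put together later. These proteins refold damaged proteins and are induced by HSF1 when unfolded protein builds up. Of 12 tested, 9 rose and 0 fell, with a median of 0.81, and 6 of the 9 were called whichever library was left out. Hspa8, the constitutive HSP70, had 293, 306 and 312 CPM across WT and 678, 571 and 564 CPM across Batf3KO (log2 change 0.99, SE 0.0841, adjusted p 1.48e-05). The co-chaperones Dnajb1 (0.89), Dnaja1 (0.99) and Hsph1 (1.18) and the HSP90 gene Hsp90ab1 (0.73) rose as well. The inducible HSP70 genes were low in both groups. Hspa1b had 0.248, 0.319 and 0.757 CPM across WT and 7.92, 3.9 and 3.17 CPM across Batf3KO (log2 change 3.51, SE 0.516, adjusted p 0.00197). Hspa1a and Hspa1b are near-identical copies, so reads could be split between them or lost. Within Batf3KO, replicate 1 had the highest value of Hspa8, Hspa1b, Hsp90ab1 and Dnaja1.

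Heat shock genes also respond to the handling of cells. Of 20 immediate early genes, which dissociation of tissue can induce, Klf2 and Zfp36 (log2 change 0.38) rose, and the list median was 0.08. The call of Klf2 stood whichever library was left out, and that of Zfp36 did not. Fos had 1.61, 2.04 and 1.36 CPM across WT and 0.982, 0.189 and 3.61 CPM across Batf3KO and was not called (adjusted p 0.981). The part of handling in the heat shock values was not tested.

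Further lists were put together after the values had been seen, and their counts only describe. Of 20 genes of protein folding in the endoplasmic reticulum 9 rose and 0 fell, among them Hspa5 (BiP, 0.37), Manf (0.62), Herpud1 (0.43), Xbp1 (0.36) and Ddit3 (CHOP, 0.66). Hspa5 is also a called member of the heat shock list, so the lists are not separate. Of 20 other cytosolic chaperones 6 rose, among them Stip1 (0.71), Fkbp4 (0.52) and Chordc1 (0.85). Of 12 genes that glucocorticoids induce 5 rose and 1 fell. Tsc22d3, the glucocorticoid-induced leucine zipper, rose from 117, 146 and 130 CPM to 380, 335 and 402 CPM (log2 change 1.51, SE 0.0998, adjusted p 1.42e-06), Fkbp5 rose by 0.75, and the metallothionein Mt1 fell by 0.54. Of 16 clock genes Per1 (1.26) and Nfil3 rose, and Dbp (-0.99), Nr1d2 (-0.97) and Per3 (-0.69) fell. Of these calls, 2 of 9 in the endoplasmic reticulum list (Herpud1 and Manf), 2 of 6 among the other chaperones (Fkbp4 and Stip1), 2 of 6 among the glucocorticoid genes (Per1 and Tsc22d3) and 3 of 5 among the clock genes (Nfil3, Nr1d2 and Per1) stood whichever library was left out. The labels do not give the time of day at which each brain was taken.

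Cell cycle genes had 0 called of 13, with 2 at an unadjusted p under 0.05 and 0 called by DESeq2 or limma. Cytosolic ribosomal protein genes had 0 called of 79, with 4 at an unadjusted p under 0.05, 1 called by DESeq2 and 0 by limma. The mitochondrial genome's 8 tested genes had 0 called, 0 at an unadjusted p under 0.05 and 0 called by DESeq2 or limma. Nuclear genes of the respiratory chain had 3 of 76 called, all higher (Ndufa4 0.46, Ndufv2 0.41, Ndufc2 0.40), close to the share over all genes, and 0 of the 3 calls stood whichever library was left out. In this list 24 of 76 genes had an unadjusted p under 0.05, DESeq2 called 6 and limma 7, 68 of 76 had a positive value, and the median was 0.17. Its sum was 5724 to 6073 CPM in WT and 6328 to 6450 CPM in Batf3KO, without overlap.

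Summed markers of neurons and of oligodendrocytes were lower in every Batf3KO library than in any WT library. In bulk RNA, fewer cells of a type and less RNA per cell cannot be told apart. The 11 neuronal markers summed to 20.5, 23.7 and 19.2 CPM across WT and 11.5, 7.44 and 9.15 CPM across Batf3KO, without overlap and with none at 0 in all libraries. Rbfox3, the NeuN gene, was the 1 called of 6 tested (log2 change -2.01, adjusted p 0.00894). A further 22 neuronal genes, picked after their values were seen, included 19 that fell, such as the glutamate receptor Gria2 (-2.95), the imprinted RNA Meg3 (43.3, 57.5 and 32.4 CPM across WT and 10.7, 9.11 and 9.88 CPM across Batf3KO) and the synaptic scaffold Bsn (-1.23), and they summed to 197, 209 and 148 CPM across WT and 53, 59.4 and 60.5 CPM across Batf3KO. The 9 oligodendrocyte markers summed to 518, 501 and 524 CPM across WT and 382, 364 and 432 CPM across Batf3KO, and Mbp (-0.72) and Mobp (-1.09), which encode myelin proteins, fell among 6 tested. Aldoc (-0.54) fell among 7 astrocyte markers and Pecam1 (-0.53) among 3 endothelial markers. The calls of Mbp and Mobp and 5 of the 19 further neuronal calls stood whichever library was left out, and those of Rbfox3, Aldoc and Pecam1 did not. The part of these transcripts in the falls of Snhg11, Ctnnd2 and other low genes was not tested. Without genes under 5 CPM in both groups and without the neuronal and oligodendrocyte lists, 399 called genes were left outside the window, and 234 of them were lower.

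Markers of blood and border cells gave 2 calls, and neither stood whichever library was left out. Mrc1, the mannose receptor of border macrophages, fell from 6.76, 11.2 and 8.26 CPM to 3.08, 5.03 and 3.5 CPM (log2 change -1.17, adjusted p 0.0302) as the 1 called of 5 tested, and the list summed to 667 to 831 CPM in WT and 778 to 819 CPM in Batf3KO. Csf3r (-0.37), which microglia also express, was the 1 called of 3 tested neutrophil genes. Type 1 dendritic cell markers had 0 called of 7 in the quasi-likelihood test, with 2 at an unadjusted p under 0.05 and Cadm1 called by DESeq2 and limma; Cadm1 had 133, 148 and 154 CPM across WT and 117, 120 and 122 CPM across Batf3KO. Monocyte genes had 0 called of 3 (2 at an unadjusted p under 0.05, 0 by DESeq2 or limma) and lymphocyte genes 0 of 2 (1 at an unadjusted p under 0.05, 1 by each other tool). Red blood cell genes had 0 called of 5 (4 at an unadjusted p under 0.05, 1 by DESeq2, 3 by limma), and their sum was 101 to 222 CPM in WT and 18.3 to 101 CPM in Batf3KO.

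The chromosome 1 window held 683 genes of the files, of which 195 were tested, 11 were called higher (5.64%) and 18 lower (9.23%). Calls were not spread evenly along it. Within 5 Mb of the Batf3 start 4 of 40 genes were called (10%), and between 5 and 10 Mb 3 of 24 (12.5%). Between 10 and 15 Mb 0 of 39 were called. Between 15 and 20 Mb away, where the SLAM receptor and Ifi200 clusters lie, 18 of 56 were called (32.1%), and between 20 and 25 Mb 4 of 27 (14.8%). Between 25 and 30 Mb 0 of 27 were called, between 30 and 40 Mb, outside the window, 6 of 69 (8.7%), and beyond 40 Mb 17 of 519 (3.28%). Of all 217 stretches of 10 Mb in the genome with at least 20 tested genes, that from 170 to 180 Mb on chromosome 1 had the highest share of calls, 24.7%, against a median of 3.39%. The called genes nearest to the border of the window before Batf3 were Uap1 inside it (170141938) and the non-coding RNA Gas5 outside it (161034422), which fell by 0.93 and 0.86.

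**Figure D4:**
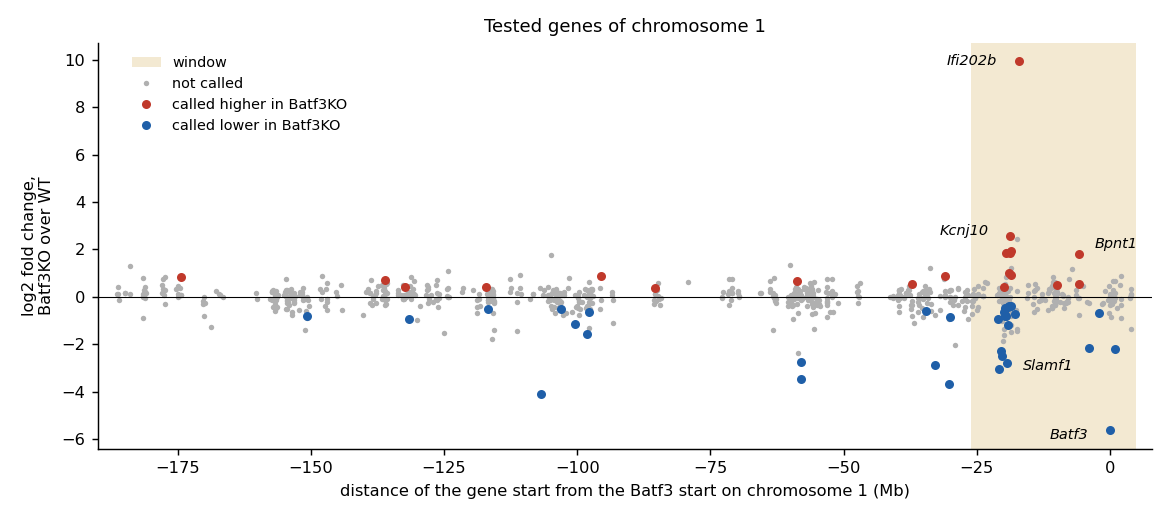
Log2 change of each tested gene of chromosome 1 against the distance of its start from the Batf3 start, in Mb; called genes are red (higher) or blue (lower), and the window is shaded. Called genes cluster 15 to 20 Mb before Batf3, where 18 of 56 were called; the fitted value of Ifi202b depends on the prior count, since it had 0 reads in WT.

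The SLAM family, receptors by which leukocytes recognise each other, lies within this cluster, and 5 of its 8 tested members changed, 2 higher and 3 lower. Slamf8, a regulator of phagocyte oxidase activity, had 56.8, 56.7 and 58.4 CPM across WT and 216, 225 and 224 CPM across Batf3KO (log2 change 1.95, SE 0.0815, adjusted p 1.58e-08). Slamf1, a receptor for bacteria, fell from 7.82, 6.32 and 10.9 CPM to 0.982, 0.817 and 1.72 CPM (log2 change -2.80, adjusted p 0.000492). Neighbouring members thus stood at opposite signs. Cd244a rose by 1.86 and Ly9, which overlaps it, fell by 0.79, and Slamf9 fell by 0.38. Cd84 and Cd48, the members with 279 to 331 CPM and 118 to 135 CPM in WT, had 271 to 315 CPM and 121 to 133 CPM in Batf3KO.

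Ifi202b, an interferon-inducible DNA-binding protein of the Ifi200 family, had 0 reads in all 3 WT libraries and 6.48, 6.16 and 10.9 CPM in Batf3KO, at least 120-fold higher against a floor of 3 reads over the WT group. Of 7 tested Ifi200 genes it was the 1 that rose, and Aim2, the inflammasome sensor of DNA, fell from 38.1, 46 and 50.3 CPM to 29.1, 24.9 and 26.6 CPM (log2 change -0.74, adjusted p 0.00827). Ifi200 genes are similar in sequence, so the split of reads between them is uncertain. Among Fc receptor genes, Fcer1g, the shared signalling chain, rose by 0.40, and Fcrlb fell from 3.16, 3.38 and 2.65 CPM to 0.262, 0.251 and 1.055 CPM (adjusted p 0.0204), with 5 of 7 genes not called.

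Other genes of the window changed as strongly and at higher levels. Igsf8, a partner of tetraspanins such as CD81, had 227, 223 and 193 CPM across WT and 781, 716 and 849 CPM across Batf3KO (log2 change 1.87, SE 0.0893, adjusted p 5.33e-08). Pea15a, an adaptor of ERK signalling, rose from 260, 255 and 221 CPM to 484, 492 and 484 CPM. F11r, the junctional adhesion molecule JAM-A, fell from 1097, 1142 and 1160 CPM to 655, 659 and 633 CPM (log2 change -0.80, adjusted p 8.75e-06). In each the knockout libraries were close to each other, and their separation from WT was part of the rule that named these genes. Olfml2b fell from 156, 133 and 137 CPM to 29.2, 30.2 and 27.4 CPM, and Bpnt1, a phosphatase of sulfate metabolism, rose from 20.3, 21.3 and 22 CPM to 84.5, 69.6 and 71.4 CPM. Kcnj10, a potassium channel, and Tagln2, an actin-binding protein, rose by 2.58 and 0.93, and Vangl2, a planar polarity protein, fell by 1.18. Olfml2b, Bpnt1, Igsf8, Pea15a, F11r, Slamf8, Slamf1, Ifi202b, Kcnj10, Tagln2, Vangl2, Uap1 and Fcer1g were called whichever library was left out. Cd244a, Ly9, Slamf9, Aim2 (adjusted p 0.051 without WT replicate 2) and Fcrlb were not.

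A smaller group of calls lay on chromosome 6 from 120 to 140 Mb, a stretch chosen after the calls by position were seen. Of 120 tested genes 6 rose and 11 fell (14.2% called). It held 4 of the 20 genes named outside the window, Hebp1, Clec7a, BC064078 and Gm44260. It also held the natural killer receptor gene Klrd1, with 0 reads in WT and 1.83, 4.15 and 2.67 CPM in Batf3KO (at least 43.3-fold higher), Lag3, an inhibitory receptor (log2 change -0.76), and Eps8, a regulator of actin (-1.60). By stretches of 10 Mb, its 2 parts had 14.1% and 14.3% called. Higher shares lay on the X chromosome from 160 to 170 Mb (5 of 27, 18.5%) and on chromosome 9 from 10 to 20 Mb (4 of 27, 14.8%). Those stretches held the named genes G530011O06Rik and Naalad2. Genes known to differ between C57BL/6 substrains were looked at as a check of the animals. Of the 8 genes listed, Nnt, like an entry of Entpd4, had 0 reads in all 6 libraries and so did not differ between the groups. Of 5 tested, Gabra2 fell from 0.806, 0.638 and 0.682 CPM to 0 reads in all 3 Batf3KO libraries (at least 11.7-fold lower), and Cyfip2 fell by 2.09, from 2.6, 4.02 and 3.26 CPM; both are also expressed by neurons. Neither call stood whichever library was left out: the adjusted p of Gabra2 reached 0.0569 and that of Cyfip2 0.144. All 5 tested genes had a negative value, with a median of -1.43, and 3 had an unadjusted p under 0.05. Wdfy1 had a mean of 36.8 CPM in WT and 13.7 CPM in Batf3KO. It did not pass the test (log2 difference -1.43, adjusted p 0.0538). Whether the Batf3KO and WT animals differ in background sequence was not tested.

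The Batf3 effect was set beside loss of Irf8 at the same age, in 2 models that share no control with it, and 12 genes were compared: Batf3, Irf8 and the first 5 named rises and first 5 named falls outside the window. Counts in genes were 2305663 to 16697746 per library in the IRF8KO experiment and 7761112 to 11177375 in the conditional one. Since 10 of the 12 were chosen by their change in Batf3KO, their differences from it are not independent of that choice. Against IRF8KO, 529 of 16426 genes (3.22%) differed in their response, a count that ranged from 154 to 1091 as single libraries were left out. Of the 12 genes 2 differed. G530011O06Rik fell in IRF8KO, from 38.8, 30.8, 20 and 12.8 CPM to 2.44, 2.68, 3.57 and 3.53 CPM, where it rose in Batf3KO (difference -8.11, SE 0.688, adjusted p 2.78e-05). BC064078 differed by 2.65 (SE 0.602, adjusted p 0.0268), with 24.3, 36.4, 30 and 33.2 CPM across WT and 9.05, 8.23, 16.5 and 17.8 CPM across IRF8KO; it was not called without a filter on low counts (adjusted p 0.0983).

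Hebp1 was low in both knockouts. In the IRF8KO experiment it had 154, 72.7, 39.5 and 38.6 CPM across WT and 2.78, 5.36, 1.75 and 4.37 CPM across IRF8KO, and its response differed from that in Batf3KO by -0.02 (SE 0.584, adjusted p 1.0). Clec7a rose in both against its own WT, with 37.3, 37.4, 13.4 and 15.4 CPM across WT and 201, 221, 182 and 213 CPM across IRF8KO (difference 0.27, SE 0.526, adjusted p 0.864). On the same scale it had 1.95, 1.3 and 2.84 CPM in the WT group of Batf3KO and 14.2, 13.6 and 12.6 CPM in Batf3KO. The Batf3KO level was thus at the low end of the WT group of the IRF8KO experiment. Naalad2 had 1.55, 14.4, 9.67 and 1.71 CPM across WT and 0.174, 0.383, 0 and 0 CPM across IRF8KO (difference -1.63, SE 1.33, adjusted p 0.594). Batf3 itself had 65.7, 27.6, 18.4 and 23.1 CPM in that WT group and 1.91, 0, 1.14 and 0.336 CPM in IRF8KO (difference 0.44, SE 0.943). With SEs of 0.526 to 1.33 for these differences, the tests do not show that the responses were alike.

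**Figure D5:**
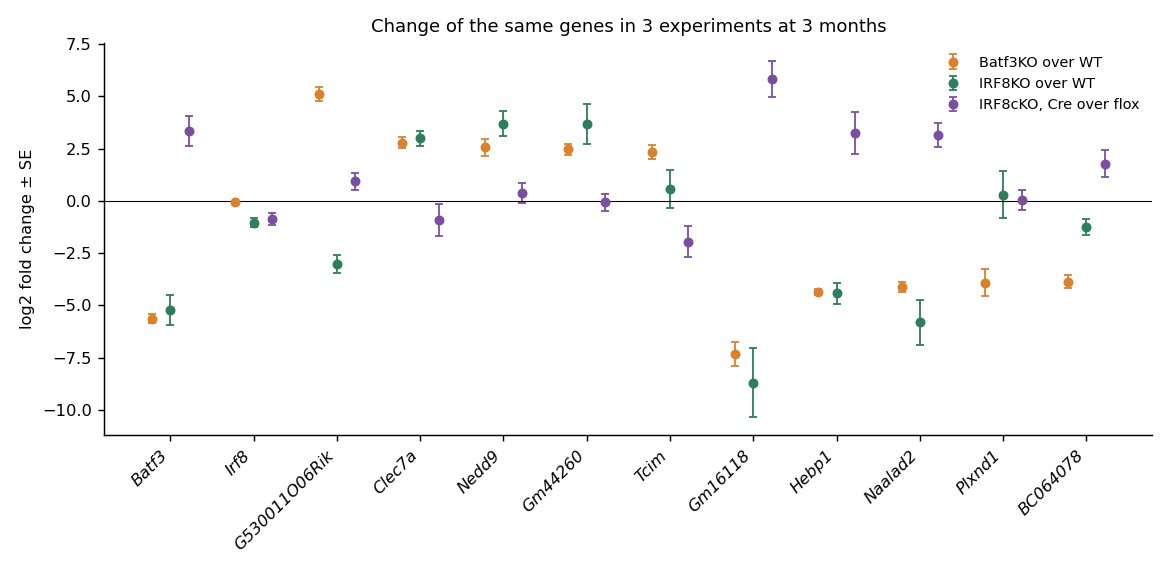
Fitted log2 change (± SE) of 12 genes in Batf3KO over WT (orange), IRF8KO over WT (green) and Cre over flox (purple). Hebp1, Naalad2 and Gm16118 are negative in Batf3KO and IRF8KO and positive in Cre over flox; fitted values of Gm16118 depend on the prior count, since IRF8KO had 0 reads.

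In the conditional Irf8 knockout 1 library went against its label. The library labelled Cre replicate 1 had 1070 CPM of Irf8, within the 928 to 1190 CPM of the flox libraries, against 417 CPM in the library labelled Cre replicate 2, 343 CPM in replicate 3 and 493 CPM in replicate 4. The Batf3 level was 4.16, 4.39 and 1.84 CPM in flox, and it was 1.24, 32.6, 63.4 and 44.9 CPM in replicates 1 to 4 of Cre. The difference in response of Batf3 between the models was 9.08 (SE 1.12, adjusted p 0.000587), and 9.48 without Cre replicate 1. Over all genes 318 of 16939 (1.88%) differed, and 1352 without Cre replicate 1. Cre against flox by itself gave 0 called of 15512 genes in edgeR, Batf3 included, with 1407 at an unadjusted p under 0.05, while DESeq2 called 164 and limma 257.

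Naalad2 and Gm16118 were low and high in the same libraries as Batf3. Naalad2 had 1.27, 0.549 and 1.15 CPM in flox and 1.35, 14.1, 9.39 and 10.8 CPM in Cre (difference 7.39, SE 0.783, adjusted p 0.00027). Gm16118 had 0.925, 0 and 0.69 CPM in flox and 2.37, 32.6, 55.3 and 34.6 CPM in Cre. Both were low in flox and in the library labelled Cre replicate 1, and high in the other 3. Hebp1 was high in 1 library only, Cre replicate 2 at 147 CPM, with 3.24 to 4.97 CPM in the other 6; its difference of 7.71 became 4.53 without that library. BC064078 was high in Cre replicates 2 and 4, at 33.1 and 37.4 CPM, against 3.16 to 7.13 CPM in the others.

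Levels across all 10 groups, set on 1 scale, show how far the affected genes vary between mice with intact Batf3. Hebp1 was 123 to 150 CPM in the WT group of this experiment and 41 to 164 CPM in the WT group of the IRF8KO experiment. In WT mice of 9 months, in which Batf3 stood at 14.5 to 18.4 CPM, Hebp1 was 1.71 to 4.15 CPM, no higher than in Batf3KO (5.34 to 7.36 CPM), and in 5xFAD mice of that age it was 33 to 62.2 CPM. Tnfsf13b was 32.2 to 45.4 CPM in WT at 9 months, 22.7 to 32.1 CPM in WT of this experiment and 2.22 to 4.06 CPM in Batf3KO. In the IRF8KO experiment at 3 months it was 10.3 to 33.7 CPM in WT and 29.3 to 61.4 CPM in IRF8KO, where Batf3 was at most 2.06 CPM. Ifi202b was at most 0.552 CPM in the other groups of 3 months, but reached 26.8 CPM in IRF8KO and 27.6 CPM in 5xFAD/IRF8KO at 9 months, in replicate 3 of each, while the other 2 replicates of each group had at most 0.146 CPM. G530011O06Rik ranged from 13.6 to 41.4 CPM in the WT group of the IRF8KO experiment, 106 to 145 CPM in WT at 9 months and 339 to 447 CPM in 5xFAD, and from 1.3 to 1.77 CPM in WT of this experiment. These levels describe groups from separate experiments and were not tested against each other.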

How the data were processed

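RNA of FACS-sorted mouse microglia was amplified from full-length cDNA with 15 PCR cycles and sequenced as paired reads of 55 bases, per the labels' protocols. The submitters' processing notes name bcl2fastq, STAR 2.5.2b, Picard 2.17.11, Subread featureCounts and the build mm10, without their order; the annotation release is not given in the sources used here. Read counts per gene were deposited by the authors; the column that ignores strand was used, and the 2 strand columns and 4 summary lines per file were not. Of each of these 6 libraries' reads, 73.5% to 76.5% were in genes. No molecular identifiers are mentioned, so counts are not independent molecules and counting intervals and floors cover counting error only. Gene symbols and coordinates came from GENCODE M21, which held 54079 of 54146 identifiers (52480 with the same version).

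Genes kept by filterByExpr were scaled by TMM and tested with edgeR 4.0.16 (quasi-likelihood, R 4.3.3), with Benjamini-Hochberg adjustment over all tested genes and a threshold of 0.05. CPM values of single genes in the 6 libraries use the same scaling. Sums of lists were scaled to the total gene counts of each library, without TMM. Values set beside the Irf8 models were scaled by TMM over the libraries of each pair of experiments. Levels across all 10 groups were scaled by TMM over all 33 libraries. Differences of effects were interaction contrasts in 1 model per pair of experiments. Where a group had 0 reads, folds are bounds against 3 reads over that group. DESeq2 1.42.0, limma 3.58.1 (voom with quality weights), other filters and scaling, a replicate block and leaving out each library were tried. The code was tested on simulated counts. The window is chromosome 1 from 165 to 196 Mb. Named genes were the 10 largest rises and 10 largest falls outside the window, and 8 of each inside it, taken from called genes whose libraries did not overlap and whose higher group had a mean of 5 CPM or more, up to 4 called members of each list, and Batf3 and Irf8. Genes named beside these were chosen after their values were seen. The experiment, the window, the 37 lists and the 5 later ones were chosen with earlier results of these data known. Replicate libraries differed from each other by more than counting noise, so none was a library deposited again; this does not show that they come from separate animals. With 3 libraries against 3, an exact permutation test cannot go below 0.1, and none was used.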

Additional observations from a re-analysis of the deposited data

Results flagged for a closer look

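The response to Batf3 loss differed from the response in the 2 Irf8 models in 10 tests of the difference itself, out of 12 genes in each of 2 comparisons. Since 10 of the 12 genes were chosen by their change in Batf3KO, these differences are not independent of that choice. Cre against flox by itself gave 0 called genes in edgeR. Against IRF8KO, G530011O06Rik differed by -8.11 and BC064078 by 2.65 on the log2 scale. Against the conditional knockout, Batf3 differed by 9.08, G530011O06Rik by -4.1, Gm44260 by -2.42, Gm16118 by 13.24, Hebp1 by 7.71, Naalad2 by 7.39, Plxnd1 by 4.04 and BC064078 by 5.72. The value of Gm16118 depends on the prior count, since some libraries had 0 reads.

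In 3 of 36 pairs of a gene and a group of 4 libraries, 1 library lay far from the others. Among groups of independent values, chance gives this in about 1 of 20. The pairs here share libraries and hold chosen genes, so that rate does not carry over, and the part of chance was not tested. Gm44260 had 0.0605 CPM, 1 read, in replicate 3 of the WT group of the IRF8KO experiment and 0 in the other 3 libraries, which is at the floor and shows no difference. Tcim had 116 CPM in the library labelled Cre replicate 1, against 4.26 to 6.36 CPM in the other 3 and 98.3 to 174 CPM in flox; without that library the difference in response of Tcim from Batf3KO was -6.77 (adjusted p 6.02e-11) in place of -4.19 (adjusted p 0.0969) in edgeR. Hebp1 had 147 CPM in the library labelled Cre replicate 2. The same library labelled Cre replicate 1 had Irf8 within the range of the flox libraries.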

How the results depend on the processing

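Of 503 genes called, 29 lay inside the chromosome 1 window and 474 outside it, which is 3.67% of the genes tested there. DESeq2 called 842 genes (6.24% outside) and limma voom 984 (46 inside, 7.25% outside). Without a filter on low counts 998 were called (3.75% of the larger number tested outside, 957 genes). With all 33 libraries in 1 model 10 were called, 2 inside and 8 outside (0.0439%). Leaving out each library gave 219 to 596 in all, 19 to 30 inside and 1.5% to 4.24% outside; inside, the 19 came without WT replicate 2 or without Batf3KO replicate 1. A replicate block gave 216 genes (20 inside, 1.52% outside); libraries of the same number did not deviate together (correlations of -0.11, -0.025 and -0.153), so the numbers do not pair them. Differences from the IRF8KO effect numbered 529, with 1533 by limma voom and 154 to 1091 as each library was left out, the highest without replicate 4 of its WT. Differences from the conditional knockout numbered 318, with 1101 without a filter, 940 by limma voom and 107 to 1352 as each library was left out. Alternatives with fewer libraries test with fewer samples; for the others the cause was not tested. No direction was reversed among the called genes named by the rule given above, and Batf3 was called in each setting. Genes named beside these were not checked for direction in every setting. Genes under 5 CPM in both groups made up 54 of the 300 falls outside the window and 9 of the 174 rises, and for these depth limits the precision.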
